A study of Canis lupus familiaris with 10 samples.

Results

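miR-146a and miR-146b are a pair of microRNAs (miRNAs) that carry the same seed, the stretch near the 5′ end that pairs with target mRNAs, but come from separate genes. They were taken by name from the count table as the rows cfa-miR-146a and cfa-miR-146b, 2 of the 320 miRNAs listed, and followed through all 10 libraries. Small RNA had been sequenced from frozen nodes: 6 came from dogs with diffuse large B-cell lymphoma (DLBCL, libraries DLBCL1 to DLBCL6) and 4 from dogs without lymphoma (Healthy2 to Healthy5), with 1 library per dog. DLBCL had been diagnosed from histology and from staining for B-cell markers without the T-cell marker CD3. The labels name no genetic alteration and no treatment. The DLBCL dogs were patients of several breeds and both sexes, some with lymphoma diagnosed before referral, and an affected peripheral node was biopsied surgically under anesthesia. The Healthy dogs were young female hound crosses bred for research, and their nodes were collected at euthanasia. Breed, sex, origin and mode of collection therefore differ along with the diagnosis, and their parts cannot be told apart. Ages of the DLBCL dogs are not given in the sources used here.

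Both miRNAs are known as brakes on NF-kB, the transcription factor family that drives inflammatory and survival genes in lymphocytes. Signals from Toll-like and interleukin-1 receptors pass through the kinase IRAK1 and the ubiquitin ligase TRAF6 to NF-kB, which induces transcription of the miR-146a gene. Mature miR-146a and miR-146b repress IRAK1 and TRAF6 in turn. miR-146a is well known in T cells, B cells and myeloid cells, and mice without it develop chronic NF-kB activity and lymphoid and myeloid overgrowth. RefSeq's gene table for the dog (assembly UU_Cfam_GSD_1.0) places MIR146A and MIR146B on different chromosomes. MIR146A overlaps no other listed gene, while MIR146B overlaps the long non-coding RNA gene LOC106557960 and has CUEDC2 as its nearest protein-coding neighbour on one side. The mature sequences are nearly identical outside the 3′ end, so that shortened reads could be counted under either name. The counts list both miRNAs without an arm.

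The DLBCL libraries held between 10686441 and 25784861 counted miRNA reads, and the Healthy libraries between 30432969 and 34709421. A single miRNA, miR-148a, took 17.8% to 39.0% of them in DLBCL and 51.5% to 73.6% in Healthy nodes. For this reason levels are given as CPM, read counts relative to a library size adjusted by edgeR's TMM method, which limits the weight of such dominant miRNAs, and the deposited TPM, scaled to the plain total, is set beside them where it matters. As a check of the tissue, the pan-leukocyte miRNA miR-142 was present in every library, from 4234 to 7521 CPM in DLBCL and from 3382 to 5461 CPM in Healthy nodes. The lymphocyte miRNAs miR-150 and miR-342 also had reads in all 10 libraries.

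miR-146a was the more abundant of the pair in each library and was lower in DLBCL. It measured 3970 CPM in DLBCL1, 4403 in DLBCL2, 1695 in DLBCL3, 3295 in DLBCL4, 5985 in DLBCL5 and 2611 in DLBCL6, a median of 3632 CPM. In the Healthy nodes it measured 8649 CPM in Healthy2, 10867 in Healthy3, 11041 in Healthy4 and 9645 in Healthy5. All 6 DLBCL libraries lay below all 4 Healthy libraries, and the highest of them, DLBCL5, remained under Healthy2, the lowest of the Healthy libraries. Of all 247 miRNAs tested, 6.07% had DLBCL values entirely below the Healthy values. By number of reads, miR-146a ranked 10th to 12th of the 320 miRNAs in the Healthy libraries and 19th to 44th in the DLBCL libraries.

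The log2 fold change of miR-146a between DLBCL and Healthy nodes was -1.46 (standard error 0.35, 95% interval -2.23 to -0.69, adjusted p = 0.0397 from edgeR's quasi-likelihood test), a 2.75-fold lower level. A differentially expressed miRNA was one that passed both an adjusted p of 0.05 and a 2-fold change. By these criteria miR-146a was called downregulated, as were 2.02% of all miRNAs tested, while 3.64% were called upregulated and 5.67% either way. For its log2 CPM, the two-sided exact permutation test gave p = 0.00476, the smallest p these group sizes allow. The full separation of the groups already places this unadjusted p at or next to its smallest value, so that it adds no further support. Such separation was seen for 6.07% of all miRNAs tested with DLBCL lower and for 6.88% with DLBCL higher. Among the 247 miRNAs, miR-146a ranked 6th by edgeR p-value but 28th by the size of the decrease.

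The call held with RLE, upper quartile and totals without miR-148a as scalings (adjusted p = 0.0468, 0.0395 and 0.0369 from edgeR). It was lost with plain totals and when some single libraries were left out. In TPM, miR-146a measured 4381 in Healthy2, less than in 4 of the 6 DLBCL libraries, and the groups overlapped. Scaled to total miRNA reads, its log2 fold change was -0.80 (adjusted p = 0.209 from edgeR), while the median over all miRNAs tested moved from 0.13 to 0.82. Relative to that median, the difference of miR-146a was -1.59 with TMM and -1.62 with total reads. With each library left out in turn, the fold change stayed between -1.66 and -1.28. The adjusted p-value was above 0.05 without DLBCL1, DLBCL6 or any one of the Healthy libraries (0.0222 to 0.144 over the 10 edgeR fits). Unadjusted, the edgeR p in these fits was 0.000453 to 0.00487. Base quality also differed along with the groups: the study lists a higher percentage of bases at Q30 for DLBCL1, DLBCL2, DLBCL3 and DLBCL5 than for the other libraries, and no Healthy library matches them. Between DLBCL4 and DLBCL6 and the Healthy nodes, all of lower base quality, the log2 fold change of miR-146a was -1.78 (adjusted p = 0.0119 from edgeR), and with the quality group as a covariate it was -1.77 (adjusted p = 0.095 from edgeR).

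**Figure D1:**
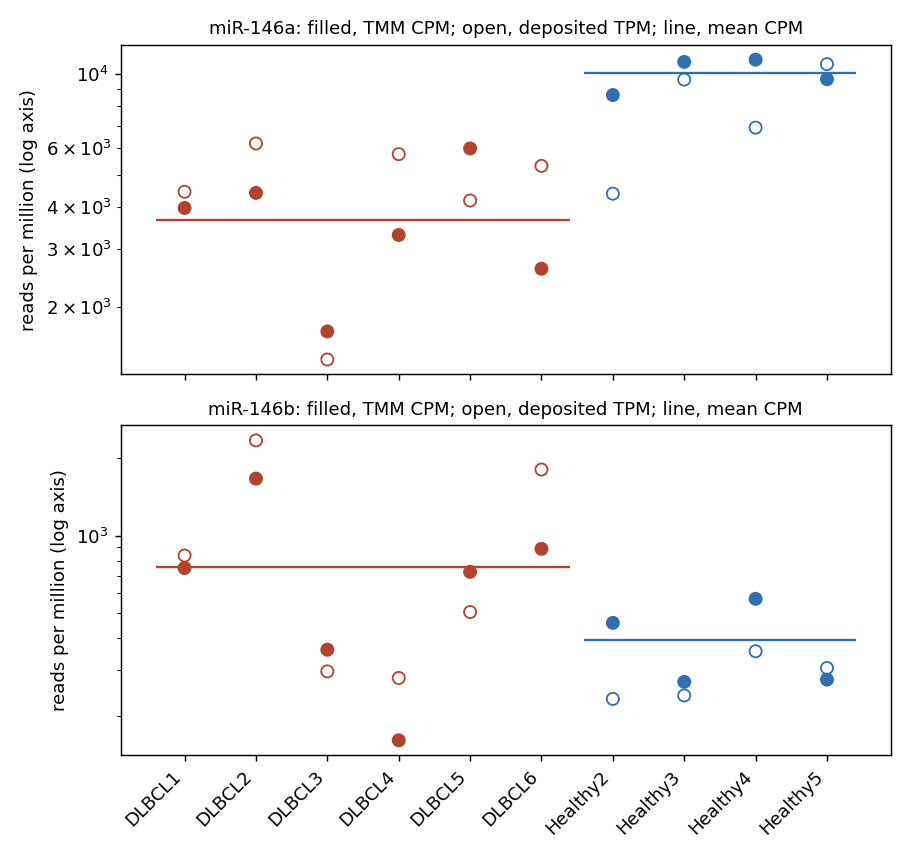
Levels (log axis) of miR-146a (top) and miR-146b (bottom) in each library, as TMM-scaled CPM (filled points) and as deposited TPM (open points), with DLBCL in red, Healthy in blue and a line at each group's mean CPM. In CPM all 6 DLBCL libraries lie below the 4 Healthy libraries for miR-146a, while for miR-146b the groups overlap and DLBCL libraries range from 160 to 1667 CPM.

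miR-146b did not follow miR-146a. It measured 749 CPM in DLBCL1, 1667 in DLBCL2, 361 in DLBCL3, 160 in DLBCL4, 724 in DLBCL5 and 889 in DLBCL6, a median of 736 CPM. The Healthy libraries held 459 CPM in Healthy2, 271 in Healthy3, 569 in Healthy4 and 276 in Healthy5. DLBCL1, DLBCL2, DLBCL5 and DLBCL6 exceeded every Healthy library, DLBCL3 lay among them, and DLBCL4 lay below them all. Its log2 fold change was 0.95 (standard error 0.57, 95% interval -0.29 to 2.18, adjusted p = 0.286 from edgeR), and the exact permutation test of log2 CPM gave p = 0.31 (two-sided). The interval therefore reaches from a small decrease to an increase of 2.18 on the log2 scale, and the level of miR-146b was not shown to differ or to be alike between the groups. Its value moved with the processing, to 1.84 with total miRNA reads (adjusted p = 0.0893 from edgeR), to 0.58 without DLBCL2 and to 0.41 among the libraries of lower base quality. None of these passed the adjusted threshold.

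The members also differed in their spread. The highest DLBCL library held 3.53 times the miR-146a of the lowest and 10.4 times the miR-146b, against 1.28 times and 2.10 times among the Healthy libraries. On the log2 scale the standard deviation of miR-146a was 0.63 over DLBCL and 0.16 over Healthy libraries, and that of miR-146b was 1.17 and 0.53. The medians over all 247 miRNAs were 0.87 and 0.46. miR-146a thus varied less than the median miRNA in both groups, and miR-146b more. This comparison was not matched for abundance, and many of the 247 miRNAs had far fewer reads than either member.

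The ratio of the members within a library needs no scaling between libraries, since both counts share the same total, and it needs no correction for length, since each read stands for 1 mature miRNA. It addresses whether the members changed by different amounts, which is the difference of their fold changes. For each read of miR-146b there were 5.30 reads of miR-146a in DLBCL1, 2.64 in DLBCL2, 4.70 in DLBCL3, 20.5 in DLBCL4, 8.27 in DLBCL5 and 2.94 in DLBCL6. The Healthy libraries had 18.9 in Healthy2, 40.2 in Healthy3, 19.4 in Healthy4 and 34.9 in Healthy5. In 5 of the 6 DLBCL libraries the ratio was below that of every Healthy library, and DLBCL4, the library with the least miR-146b, fell within the Healthy range.

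The log2 ratio averaged 2.50 (SD 1.09, n = 6) over DLBCL libraries and 4.74 (SD 0.57, n = 4) over Healthy libraries, a difference of -2.24 or a 4.73-fold lower ratio (two-sided exact permutation test, p = 0.019, with 0.00476 the smallest p possible). It was -2.61 without DLBCL4 (exact permutation test, p = 0.00794) and was between -2.61 and -2.02 over the 10 sets that left out 1 library. Without Healthy3 or without Healthy5 the exact permutation p was 0.0595. In the libraries of lower base quality the difference was -1.79, with 0.0667 as the smallest p that this number of libraries allows (exact permutation test, p = 0.2).

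**Figure D2:**
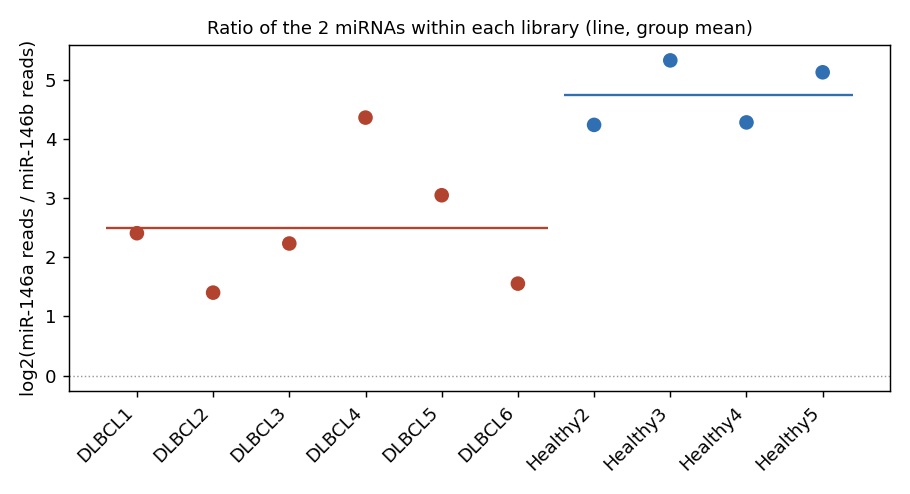
Log2 of miR-146a reads per miR-146b read in each library, with DLBCL in red, Healthy in blue and lines at the group means of 2.50 and 4.74. Of the DLBCL libraries only DLBCL4, at 4.36, reaches the Healthy libraries, which lie from 4.24 to 5.33.

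Since both miRNAs share a seed, their summed reads give the amount of miRNA with that seed as counted under these names. The sum measured 2055 to 6709 CPM in DLBCL with a median of 4110, and 9108 CPM in Healthy2, 11138 in Healthy3, 11610 in Healthy4 and 9921 in Healthy5. All DLBCL libraries lay below all Healthy libraries, as they did for 6.07% of all miRNAs tested. Since miR-146a made up most of the summed reads in every library, this largely repeats its own separation. With both rows replaced by their sum, the log2 fold change was -1.23 (standard error 0.35, 95% interval -1.99 to -0.46). The sum missed the adjusted threshold (adjusted p = 0.0627 and unadjusted p = 0.00433 from edgeR). The exact permutation test of its log2 CPM, also unadjusted, gave p = 0.00952 (two-sided), a value that the separation of the groups already keeps near its smallest. Of the summed reads, miR-146b made up a mean of 17.0% (SD 8.63, n = 6) over DLBCL libraries and of 3.79% (SD 1.37, n = 4) over Healthy libraries. Scaled to total miRNA reads, the log2 fold change of the sum was -0.56 (adjusted p = 0.387 from edgeR).

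**Figure D3:**
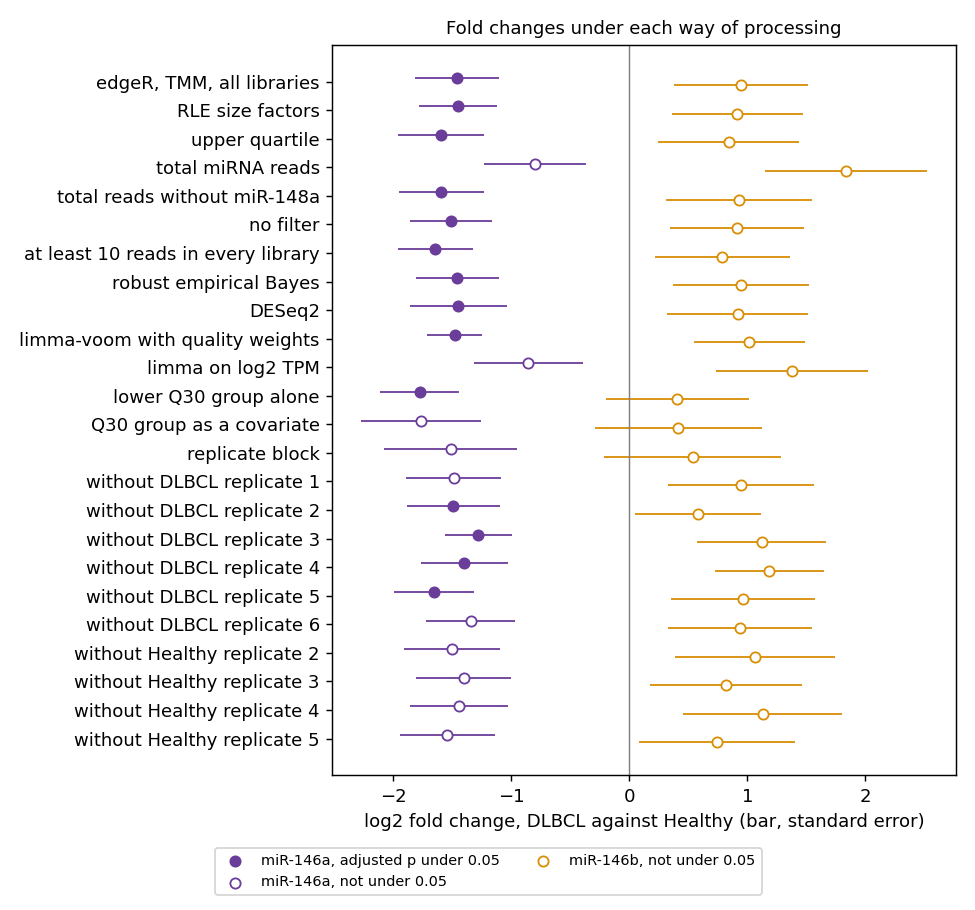
Log2 fold changes (DLBCL against Healthy) of miR-146a in purple and miR-146b in orange under each way of processing and with each library left out, where bars are standard errors and filled points have an adjusted p under 0.05. miR-146a lies below 0 and miR-146b above 0 in every row, and no point of miR-146b is filled.

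The fold changes of 65 pairs of tested miRNAs that share a number and differ in their letter were set side by side, from 29 such groups. These pairs were used because mature sequences were not at hand for all miRNAs, so a shared seed was not checked. Pairs that share a member are not independent. The gap between miR-146a and miR-146b, 2.40 on the log2 scale, was 2nd of the 65, after miR-34a and miR-34c at 3.09, and ahead of miR-29a and miR-29c at 2.27. The median gap was 0.59, and the signs were opposite in 30 of the pairs. With both miRNAs at a mean of at least 100 CPM, 36 pairs were left and miR-146a and miR-146b had the largest gap of them.

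**Figure D4:**
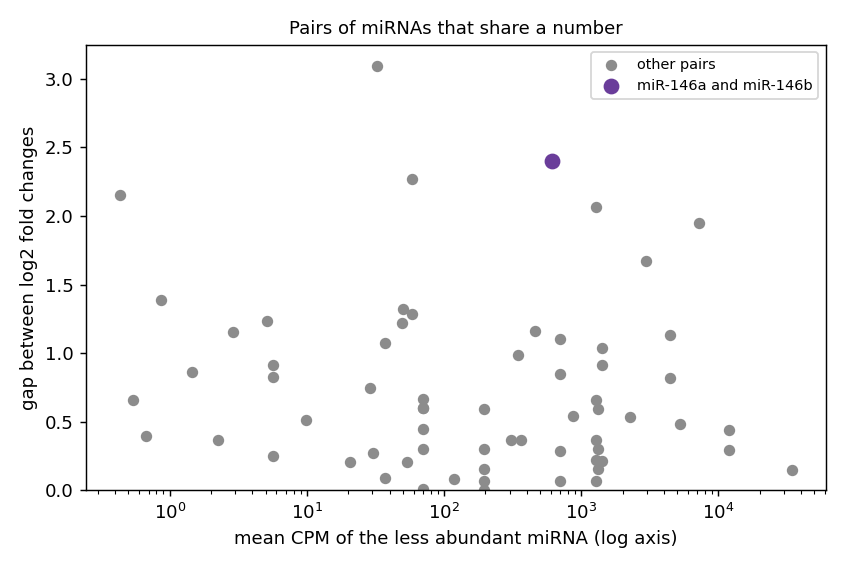
Gap between the log2 fold changes of miRNA pairs that share a number, against the mean CPM of the less abundant miRNA (log axis), with the miR-146 pair in purple and the other 64 pairs in grey. The miR-146 pair lies at 2.40, above the median of 0.59 and below 1 other pair.

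In the 6 DLBCL libraries, Pearson's r between the log2 CPM of miR-146a and of miR-146b was 0.39 and Spearman's rho 0.31, given here as a description of libraries that share their scaling. Without DLBCL3 they were 0.25 and 0.0. The other libraries were not left out in turn for these values, and with so few libraries no relation can be read from them. After subtraction of the group means, the miRNAs most like miR-146a over the 10 libraries were miR-99a (r = 0.92), miR-8859a (r = 0.88) and miR-499 (r = 0.86) of 246 candidates, and miR-146b came 70th (r = 0.36). Among the DLBCL libraries, DLBCL3 and DLBCL5 had the lowest and the highest level of miR-99a, 4856 and 162741 CPM, as they had of miR-146a, and without DLBCL3 these values fell to 0.83, 0.72 and 0.81. None of these 3 miRNAs was called between the groups. miR-99a also belongs to the stroma and vessel list given below, while miR-8859a and miR-499 belong to no list. For miR-146b the nearest were miR-149 (r = 0.78), miR-135b (r = 0.76) and miR-224 (r = 0.73), and none of them was called either. Their levels were low, at 1.66 to 8.92 CPM for miR-149, 0 to 4.36 CPM for miR-135b and 3.60 to 74.7 CPM for miR-224. These values of r describe the libraries, which share their scaling.

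The members were then set beside 13 other miRNAs with known links to NF-kB, of which all were tested. Of the 13, 1 was called, where 5.67% of all miRNAs tested were, so that the count is near the background. It was miR-31, known to repress the NF-kB inducing kinase NIK. It measured 64.2 to 612 CPM in DLBCL against a mean of 23.2 CPM (SD 5.74, n = 4) over Healthy libraries, and its log2 fold change was 3.64 (SE 0.69, edgeR adjusted p = 0.014). All DLBCL libraries exceeded all Healthy libraries for miR-31, as they did for 6.88% of all miRNAs tested. None of the 13 was called lower, where 2.02% of all miRNAs tested were, so that this too says little. The median log2 fold change of the list was -0.20 and that of all miRNAs tested 0.13, with 6 of 13 above 0 against 137 of 247.

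Among the 6 miRNAs entered in the list as induced by NF-kB or Toll-like receptor signals, none was called. With 5.67% called over all miRNAs, this says little about a list of this size. miR-155, the classical companion of miR-146a in activated lymphocytes and macrophages, measured 3264 to 14698 CPM in DLBCL and 4089 to 7091 CPM in Healthy libraries, and its log2 fold change was 0.44 (SE 0.47, edgeR adjusted p = 0.568). miR-21, a widely expressed miRNA of inflammation and cancer, had 0.11 (standard error 0.35, adjusted p = 0.859 from edgeR). miR-125b, which represses the NF-kB inhibitor A20, was below every Healthy library in all 6 DLBCL libraries, as 6.07% of all miRNAs tested were, at 41.4 to 629 CPM against 746 to 1516 CPM, but its adjusted p was 0.118 from edgeR. miR-9 had the largest value of these 6, 2.81 on the log2 scale (SE 1.10, edgeR adjusted p = 0.121), with 4 DLBCL libraries above and 2 below all Healthy libraries. The difference of miR-146a from these miRNAs was not tested.

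**Figure D5:**
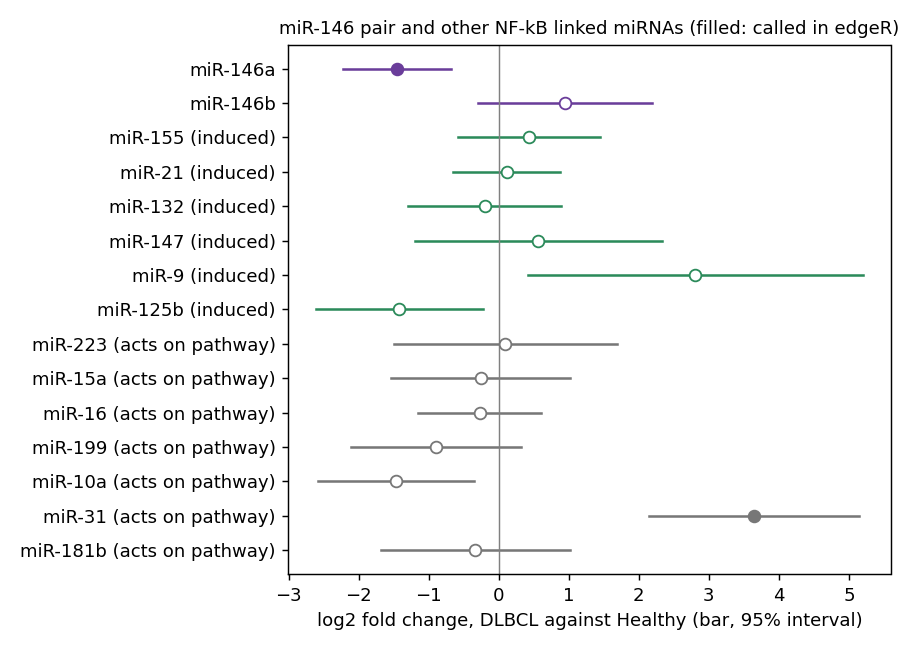
Log2 fold changes (DLBCL against Healthy) with 95% intervals of miR-146a and miR-146b (purple), of 6 miRNAs listed as induced by NF-kB signals (green) and of 7 listed as acting on the pathway (grey), with filled points for those called in edgeR. Of the 15, miR-146a is called lower and miR-31 higher, beside 2.02% called lower and 3.64% called higher over all miRNAs tested.

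Among the 7 miRNAs that act on the pathway, the values apart from miR-31 ranged from -1.47 to 0.09 and none was called. With 5.67% called over all miRNAs tested, this says little about so few members. miR-10a, which restrains NF-kB activity in endothelium, was likewise below every Healthy library in all DLBCL libraries (6.07% over all miRNAs tested), and its log2 fold change was -1.47 (SE 0.51, edgeR adjusted p = 0.109), of the size of miR-146a but with a wider spread. miR-223, miR-15a and miR-16, which target the kinase IKKα, had 0.09, -0.26 and -0.27. miR-199, which targets IKKβ, had -0.90 (standard error 0.56, adjusted p = 0.296 from edgeR).

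Lymph nodes hold several cell types, and in such tissue fewer cells of a type and less miRNA per cell cannot be told apart. Some miRNAs used as cell type markers moved along with the groups. miR-150, a miRNA of resting mature lymphocytes, fell to 553 to 1736 CPM in DLBCL from 3407 to 15205 CPM in Healthy libraries, and its log2 fold change was -2.97 (SE 0.50, edgeR adjusted p = 0.00687). The other members of the lymphocyte list were not called, miR-342 at -0.77 (adjusted p = 0.223 from edgeR) and miR-142 at 0.22 (adjusted p = 0.697 from edgeR). Over all miRNAs tested, 2.02% were called lower and 5.67% either way, so that a count among so few members says little. The summed level of the list was 4855 to 9088 CPM in DLBCL and 6884 to 20817 CPM in Healthy nodes. It includes the pan-leukocyte miR-142, at 4234 to 7521 CPM in DLBCL and 3382 to 5461 CPM in Healthy nodes. The part of these cells in the lower miR-146a was not tested. Within the 6 DLBCL libraries miR-146a and miR-150 had a Pearson's r of -0.25 and a Spearman's rho of -0.26, and without DLBCL3 these turned to 0.58 and 0.30, so that no direction can be read from them.

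Of the red blood cell list, miR-451 and miR-486 were called higher and miR-144 was not, beside 3.64% called higher over all miRNAs tested, and the summed level was 5171 to 35567 CPM in DLBCL against 808 to 1070 CPM in Healthy nodes. For the lists that follow, the share called either way over all miRNAs was 5.67%, so that a count of 0 among so few members says little. The myeloid list had 0 of 2 members called, and its sum was 4.38 to 88.8 CPM in DLBCL and 18.3 to 41.7 CPM in Healthy nodes. Of the stroma and vessel list, 7 of the 8 names were listed and 0 were called, with sums of 54004 to 251856 CPM and 83320 to 145612 CPM. In that list 6 of the 7 log2 fold changes were below 0, with a median of -0.30. Over all miRNAs tested, 110 of 247 were below 0, with a median of 0.13. The epithelial list, with 3 of 7 tested and miR-200b at 0 in 9 libraries, and the muscle list, with 3 of 4 tested, had no call, and their sums reached at most 130 and 360 CPM. The part of these cells in the values of the miR-146 pair was not tested.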

How the data were processed

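Small RNA libraries (NEBNext kit) of 10 lymph nodes were sequenced. The authors cleaned the reads, mapped them with Bowtie 0.12.9 (CanFam3.1 in the submitters' processing notes), removed repeats and other small RNA classes, and assigned the rest to known miRBase miRNAs with miRDeep2. How reads matching both miR-146a and miR-146b were treated is not given in the sources used here. The deposited table holds raw read counts of 320 miRNAs per library, without normalization, and the deposited TPM values, which equal counts scaled to the sum of listed miRNA reads within 4.55e-05.

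Groups were taken from the sample titles. Counts were tested with edgeR 4.0.16 in R 4.3.3 (default filter by group, leaving 247 miRNAs, TMM, quasi-likelihood test, Benjamini-Hochberg adjustment). Standard errors (SE) were derived from the log2 fold change and its F statistic. Calls needed an adjusted p below 0.05 together with a log2 fold change beyond 1 in either direction. The study's methods used DESeq2, which is an alternative here. Single values and the within-library ratio were tested by exact permutation in Python 3.11.15. No libraries of a group were duplicates (chi-squared per degree of freedom of at least 2115). The edgeR and permutation tests, but not DESeq2 or limma, were first tried on simulated data. With this many reads the spread between dogs, not counting error, limits precision, and p-values measure that spread.

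Alternatives were other scalings (RLE, upper quartile, total reads, total without miR-148a), other filters, robust empirical Bayes, DESeq2 1.42.0, limma 3.58.1 (voom with quality weights, and log2 of TPM with 1 added), the Q30 group as a covariate or its lower group alone, the replicate number as a block, and leaving out each library. The 2 members and all lists were chosen with earlier results of these data known. The miRNAs named are the members, the lists, the 3 most like each member, and the 3 pairs with the widest gap. The last were meant to be paired by seed, but mature sequences were not at hand for all miRNAs, so a shared number was used. That choice was made after the data were seen, as were the 100 CPM limit and the sets without DLBCL3 for the likeness values and correlations.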

Additional observations from a re-analysis of the deposited data

How the results depend on the processing

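The direction of miR-146a, of miR-146b and of their sum was kept in each of the 23 alternatives, and that of the ratio in each of its 14. For miR-146a the log2 fold change ran from -1.78 to -0.80 outside the leave-one-out fits. Its adjusted p-value passed 0.05 in 9 of 13 of these, and it did not with total miRNA reads (-0.80), limma on log2 TPM (-0.86), the Q30 group as a covariate (-1.77) or the replicate block (-1.51, adjusted p = 0.183 from edgeR). Leaving out each library gave -1.66 to -1.28, with 4 of 10 past the threshold. For miR-146b the values were 0.41 to 1.84, and 0.58 to 1.19 without single libraries, with 0 past the threshold. The unadjusted p was under 0.05 in 4 of the 23, with total reads (0.0182), without DLBCL4 (0.0249), limma-voom (0.0495) and limma on log2 TPM (0.0499). The sum passed with total reads without miR-148a (-1.36), at least 10 reads in every library (-1.42), DESeq2 (-1.24), limma-voom (-1.21) and the lower Q30 group alone (-1.60), and ranged from -1.38 to -1.07 without single libraries, passing without DLBCL3 and without DLBCL5.

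The log2 ratio difference was -1.79 in the lower Q30 group and -1.98 over the pairs of the replicate block, designs whose smallest p is 0.0667 and 0.125, and -2.61 to -2.02 without single libraries. As the share of miR-146b in percent it was 13.2 points (exact permutation test, p = 0.0286). Of the 13 NF-kB linked miRNAs, 2 were called with DESeq2, 3 with limma-voom, 3 in the lower Q30 group, 0 with the replicate block and 0 to 3 without single libraries (3 without DLBCL3, 0 without Healthy2 or Healthy4). Over all miRNAs, where the main count was 14, 8 were called with RLE, 23 with total reads, 45 with DESeq2, 46 with limma-voom, 46 in the lower Q30 group, 7 with Q30 as a covariate, 1 with the replicate block and 1 to 23 without single libraries, the fewest without Healthy4 and the most without DLBCL4. The split of higher to lower calls went from 9 to 5 in the main fit to 22 to 1 with total reads, 18 to 3 with limma on log2 TPM, 5 to 5 with upper quartile and 3 to 5 with RLE. Equal numbers do not pair the dogs: deviations of same-numbered libraries correlated at 0.19, 0.11, -0.33 and -0.40, and 0 of 4 Healthy libraries correlated best with its own number. The cause of these changes was not tested.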
